A study of Mus musculus with 9 samples.

Results

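T cell receptor signalling genes were followed, step by step, in regulatory T cells (Tregs) of the uninjured lung, of the lung recovering from injury and of the spleen of injured mice. The set held 40 genes with a known place in the pathway. They covered the receptor and its surface partners, the first kinases, the adaptors, the brakes and the downstream branches. The genes were chosen with earlier results of these data known, so shares set beside those of all genes describe these data only. Of the 40 genes, 38 matched a row of the expression table through a RefSeq transcript accession, among 21023 named genes in all. Lcp2 and Vav1 were not matched and are not analysed here. Where several rows match a gene, the brightest stands for it, but 0 of the 38 had more than 1.

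The T cell receptor recognises peptides through its variable chains and signals through the CD3 and zeta chains. Lck phosphorylates those chains, Zap70 docks on them and phosphorylates the scaffold Lat, and the complex built there opens calcium, Ras and NF-kB branches that end in NFAT, AP-1 and NF-kB. Phosphatases, the kinase Csk and ubiquitin ligases of the Cbl family hold the cascade back. Tregs need this receptor both to form and to keep their suppressive state.

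The cells were CD4+ GFP+ sorts from Foxp3EGFP mice (C57BL/6, 8 to 12 weeks old), whose Foxp3 locus drives a green fluorescent protein in all 3 groups. The groups were control lung (uninjured), resolving lung (Escherichia coli lipopolysaccharide at 3 mg/kg, instilled into the trachea) and resolving spleen (spleens of mice given the same treatment), with 3 arrays each. No uninjured spleen was compared. Lungs were digested with enzymes and spleens were broken up mechanically, so organ and dissociation cannot be told apart, and control lung and resolving spleen also differ in injury. The sources used here give neither the harvest day nor the number of mice behind each array. Since nothing says that replicates are separate animals, the p-values reflect spread between these samples alone, and part of it may be technical. Each value is a log2 expression value, on which a difference of 1 is a doubling. These are bulk samples, so fewer cells of a type and less RNA per cell cannot be told apart. A gene was called when its Benjamini-Hochberg adjusted p from limma, over all named genes, was under 0.05. With 3 arrays a group, the smallest p an exact permutation test allows is 0.1.

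Foxp3, the factor that defines Tregs, averaged 10.67 ± 0.036 (SD, n = 3) in control lung, 10.58 ± 0.16 in resolving lung and 10.69 ± 0.046 in resolving spleen, with overlapping arrays. Of the 3 other Treg markers, Ctla4 was higher than in spleen in control lung (2.05-fold, limma adjusted p = 0.000443) and resolving lung (2.20-fold, adjusted p = 0.00136), Il2ra was lower in control lung than in spleen (1.30-fold, adjusted p = 0.0364), and Ikzf2 was not called. On each of the 9 arrays all 38 genes of the set exceeded the dim level. That level, between 3.32 and 3.52, is the 95th percentile of the values of 915 olfactory receptor genes, which T cells are not known to use. The set varied little between arrays of a group, with a median SD of 0.090 in control lung, 0.11 in resolving lung and 0.059 in resolving spleen, against 0.12, 0.16 and 0.11 for all 8938 genes above the dim level. The number of arrays limited the precision.

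Resolving lung replicate 1 stood apart from the other arrays. It was the lowest of the 9 arrays for 15 of the 38 genes (39.5%), against 19.4% of the 8938 genes above the dim level. The mean of 9 macrophage marker genes was 6.69 on it, 4.64 on each of the other resolving lung arrays, 3.84 to 4.96 in control lung and 4.36 to 5.14 in resolving spleen. In resolving lung, 6 of the 9 macrophage markers exceeded the dim level on each of the 3 arrays. On the same array the mean of 5 CD8 T and NK cell markers was 5.51, against 6.11 and 6.36 on the other resolving lung arrays. Resolving spleen replicate 1 was lower still, at 5.44. Of the 5, Nkg7 went the other way, at 9.02 on resolving lung replicate 1, its highest of the 9 arrays, against 7.95 and 7.92. Resolving lung replicate 1 also had the highest mean of 5 neutrophil markers, 5.11 against 3.53 and 3.58, and of 6 endothelial and stromal markers, 5.77 against 3.82 and 3.78. Some of the results that rest on this array are given with and without it. Markers of other cells also followed the groups. The mean of 6 epithelial markers was 8.01 to 9.17 in control lung, 6.25 to 6.94 in resolving lung and 3.30 to 4.69 in spleen, and 3 of the 6 were called lower in resolving than in control lung, 4 higher in resolving lung than in spleen and 5 higher in control lung than in spleen. The mean of 2 erythroid markers was 2.72 to 3.48, 3.58 to 7.69 and 6.16 to 7.81 in the same order of groups. The part of these markers in the results was not tested.

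Promoter sequences are shown for 4 genes of the surface and the brakes. They are Ptpn6, which was lower in both lung groups than in spleen, Cblb, which had the smallest p between the lung groups, and the neighbouring CD3 genes Cd3g and Cd3d, called in no comparison. Each is the 250 bases before a transcript start site given in RefSeq (GRCm38.p6), 5′ to 3′ on the gene's strand: Ptpn6 at chr6:124738710-124738959 (minus strand), Cblb at chr16:52031299-52031548 (plus), Cd3g at chr9:44980432-44980681 (minus) and Cd3d at chr9:44981536-44981785 (plus). Capitals mark GGAAG, the core of many ETS factor sites, on either strand, so its reverse complement CTTCC is in capitals too. In RefSeq the Cblb gene begins before its window and Cd3d within its own, so these windows lie wholly and partly inside the gene.
Ptpn6: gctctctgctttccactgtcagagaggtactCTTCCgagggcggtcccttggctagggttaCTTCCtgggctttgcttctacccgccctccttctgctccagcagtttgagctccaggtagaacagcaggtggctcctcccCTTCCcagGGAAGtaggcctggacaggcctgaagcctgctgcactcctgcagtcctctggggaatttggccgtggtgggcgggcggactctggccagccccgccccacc
Cblb: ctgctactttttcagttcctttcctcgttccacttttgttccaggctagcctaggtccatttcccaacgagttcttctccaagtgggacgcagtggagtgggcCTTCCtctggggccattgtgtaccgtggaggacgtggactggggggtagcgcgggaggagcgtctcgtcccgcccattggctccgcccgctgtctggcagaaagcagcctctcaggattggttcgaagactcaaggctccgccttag
Cd3g: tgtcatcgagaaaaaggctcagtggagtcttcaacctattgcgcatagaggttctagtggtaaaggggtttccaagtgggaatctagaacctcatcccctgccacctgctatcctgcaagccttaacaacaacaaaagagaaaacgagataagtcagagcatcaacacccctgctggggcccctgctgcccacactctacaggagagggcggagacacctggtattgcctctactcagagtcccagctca
Cd3d: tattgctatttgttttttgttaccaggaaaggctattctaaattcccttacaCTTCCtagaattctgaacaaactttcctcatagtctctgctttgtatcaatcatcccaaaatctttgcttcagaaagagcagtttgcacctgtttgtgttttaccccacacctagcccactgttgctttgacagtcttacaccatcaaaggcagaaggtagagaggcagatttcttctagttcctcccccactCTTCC
Ptpn6 held 4 matches, Cd3d 2, Cblb 1 and Cd3g 0. Of all 32851 windows of this length in the RefSeq table, 64.1% held GGAAG on either strand, as did 28 of the 38 windows found for 28 of the 38 genes. Cd28, Sla and Malt1, all called against spleen, had no window. The RUNX core TGTGGT (14.0% of all windows, 6 of the 38), the NFAT core GGAAAA (20.4%, 4 of the 38) and the AP-1 site TGANTCA (6.75%, 0 of the 38), searched on both strands, were in none of the 4 windows shown. GGAAG and GGAAAA share their first 4 letters. These matches describe letters only. The Cd3g and Cd3d windows lie 854 bases apart and point away from each other.

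Between the lung groups, none of the 38 genes was called in limma, where 0.457% of all named genes and 0.884% of the 8938 above the dim level were. At an unadjusted p under 0.05 there were 9 (23.7%), against a background of 14.0% of all named genes and 26.0% of those above the dim level. By the sign of the mean, 29 genes were lower and 9 (23.7%) higher in resolving lung. The background was 52.5% higher among all named genes and 55.7% among those above the dim level. The median log2 difference was -0.098, against 0.0086 over all named genes and 0.034 over those above the dim level. Without resolving lung replicate 1, 30 were lower and 8 higher, with a median of -0.077. Arrays of the lung groups did not overlap for 14 genes (36.8%), 12 lower and 2 higher in resolving lung, where 16.3% of all named genes (7.5% lower, 8.79% higher) and 27.4% of those above the dim level did not overlap.

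Against spleen, 3 genes differed in resolving lung and 5 in control lung. In resolving lung, Malt1 and Sla were higher and Ptpn6 lower (3 of 38, or 7.89%, against a background of 5.46% of all named genes, 2.64% higher and 2.82% lower, and 10.9% of those above the dim level). In control lung, Cd28, Sla, Cblb and Malt1 were higher and Ptpn6 lower (5 of 38, or 13.2%, against 6.16%, 2.67% higher and 3.49% lower, and 12.3%). Both shares were near those of genes above the dim level. By sign, 31 genes were lower and 7 (18.4%) higher in resolving lung than in spleen (background 52.8% and 44.0% higher). Their median log2 difference was -0.12, against 0.0091 and -0.037. For control lung minus spleen, 20 (52.6%) were higher and 18 lower (background 51.0% and 40.0% higher), with a median of 0.016. An unadjusted p under 0.05 was reached by 11 genes for resolving lung (28.9%, background 18.8% and 33.4%) and by 15 for control lung (39.5%, background 18.8% and 33.8%). Arrays did not overlap for 12 genes between resolving lung and spleen (31.6%, background 23.1% and 36.6%) and for 24 between control lung and spleen (63.2%, background 25.5% and 42.7%). The 3 comparisons share arrays, so their values are given side by side.

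**Figure D1:**
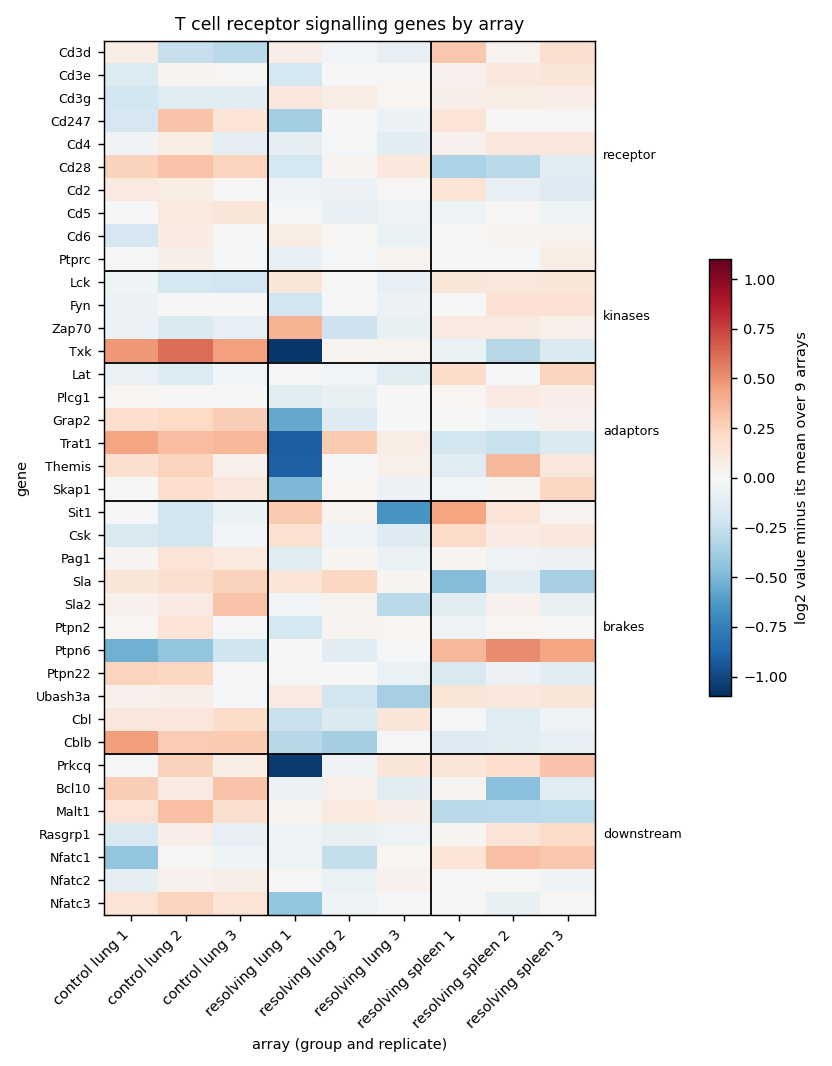
Heat map of the 38 genes (rows, grouped by step) on the 9 arrays (columns), coloured by the log2 expression value minus the gene's mean over all 9 arrays. Resolving lung replicate 1 is the lowest array for 15 of the 38 genes, most visibly for Txk, Trat1, Themis and Prkcq, and Ptpn6 is highest on the 3 resolving spleen arrays.

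**Figure D2:**
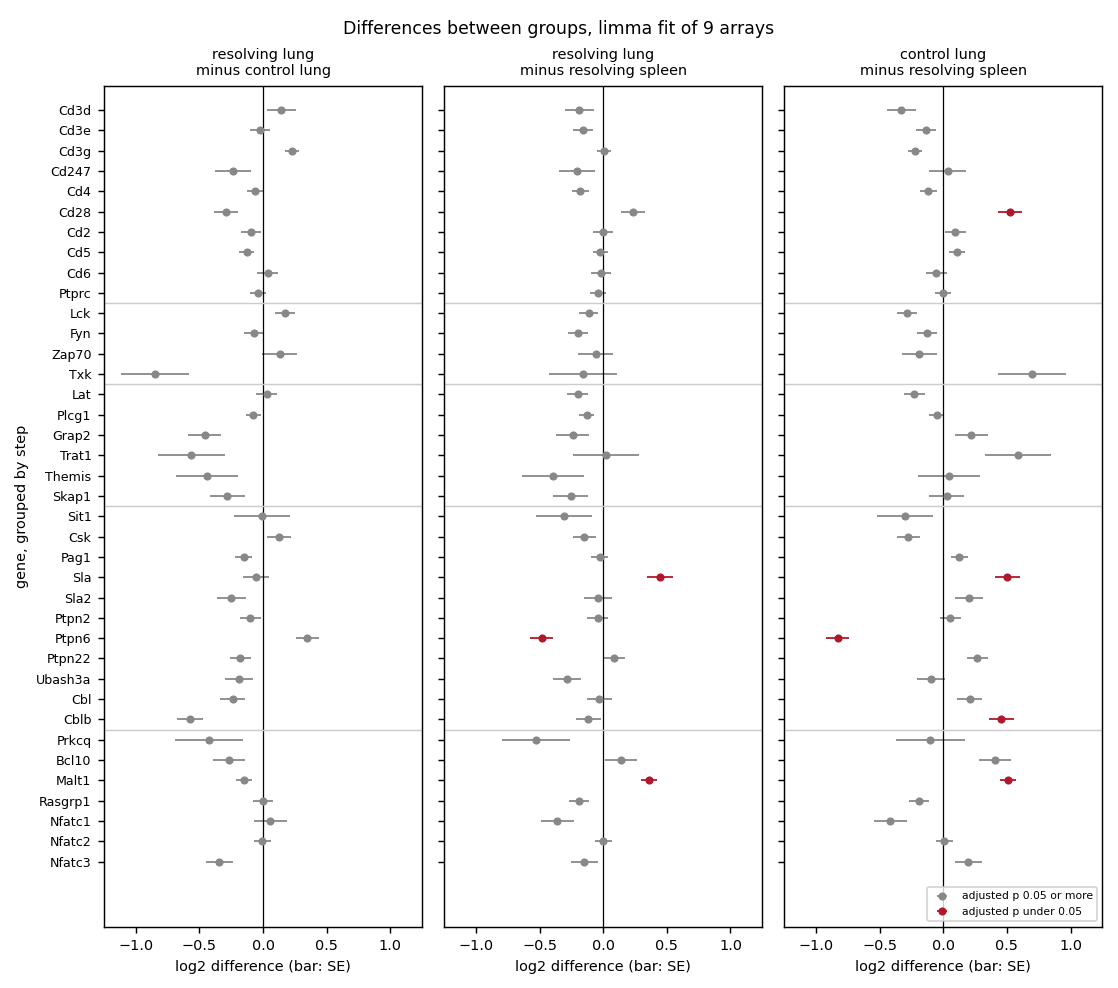
Log2 differences of the 38 genes with standard errors in the 3 comparisons, by step, with genes past an adjusted p of 0.05 in red. No gene is red between the lung groups, 3 are red for resolving lung minus spleen and 5 for control lung minus spleen.

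Among the surface genes, Cd28 was higher in control lung than in spleen, and none of the CD3 chains was called in any comparison. Cd28, the main costimulatory receptor, read 8.89, 8.95 and 8.88 in control lung, 8.44, 8.66 and 8.75 in resolving lung, and 8.28, 8.34 and 8.52 in resolving spleen. Control lung lay above both other groups on every array, and the resolving groups overlapped. Cd28 was 1.44-fold higher in control lung than in spleen (log2 difference 0.53, SE 0.096, limma adjusted p = 0.0171). Between the lung groups its log2 difference was -0.29 (SE 0.096, limma adjusted p = 0.223), and for resolving lung minus spleen it was 0.23 (SE 0.096, adjusted p = 0.233). Without resolving lung replicate 1 these differences were -0.20 and 0.32. The call on Cd28 was lost without any 1 of the control lung arrays or without spleen replicate 1 or 2, with adjusted p from 0.0507 to 0.0649 and differences from 0.48 to 0.54.

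Cd3g, the gamma chain of CD3, read 10.96, 11.03 and 11.04 in control lung, 11.29, 11.25 and 11.19 in resolving lung, and 11.23, 11.24 and 11.24 in resolving spleen. Its control lung arrays were the lowest and did not overlap either other group, while the resolving groups overlapped. The log2 difference was 0.23 (SE 0.055, 1.17-fold, limma adjusted p = 0.119) for resolving lung minus control lung, 0.0051 (95% interval -0.12 to 0.13) for resolving lung minus spleen and -0.22 (adjusted p = 0.0527) for control lung minus spleen. The last passed the threshold in 3 of 19 alternatives: an intensity trend with a robust prior, array weights, and leaving out resolving lung replicate 1 (limma adjusted p = 0.0466). Cd3d, the delta chain transcribed from the neighbouring promoter, read 9.12, 8.78 and 8.73 in control lung, 9.10, 9.0 and 8.94 in resolving lung, and 9.33, 9.07 and 9.21 in resolving spleen. Control lung replicate 1 was the highest of its group and overlapped both other groups. Without that array, control lung minus spleen for Cd3d went from -0.33 (limma adjusted p = 0.156) to -0.45 (adjusted p = 0.0479).

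The other surface genes were not called. Cd4, the coreceptor that carries Lck and part of the sorting gate, read 10.90, 11.01 and 10.84 in control lung, 10.83, 10.92 and 10.82 in resolving lung and 10.99, 11.06 and 11.06 in resolving spleen. Its lowest spleen array lay above the 3 resolving lung arrays, at a log2 difference of -0.18 (SE 0.067, limma adjusted p = 0.192). Cd3e, Cd247 (the zeta chain), the adhesion receptor Cd2, the dampers Cd5 and Cd6, and Ptprc (CD45, the phosphatase that keeps Lck ready) had log2 differences between -0.24 and 0.11 in the 3 comparisons. Ptprc averaged 11.43 ± 0.049, 11.40 ± 0.063 and 11.44 ± 0.056 (SD, n = 3) in control lung, resolving lung and resolving spleen.

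None of the 4 kinases was called in any comparison, where 1 had an unadjusted p under 0.05 between the lung groups, 1 for resolving lung minus spleen and 2 for control lung minus spleen. Lck read 9.80, 9.65 and 9.63 in control lung, 9.98, 9.85 and 9.76 in resolving lung, and 9.98, 9.97 and 9.98 in resolving spleen. Control lung lay below spleen on every array, and resolving lung overlapped both. Its log2 difference for control lung minus spleen was -0.29 (SE 0.075, limma adjusted p = 0.067), and it was past the threshold in 5 of 19 alternatives. For Lck these were array weights (adjusted p = 0.0274), array medians aligned (0.0369), quantile normalization repeated (-0.36, 0.019), and leaving out resolving lung replicate 1 (0.0397) or replicate 1 of both lung groups (0.0306).

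Txk, a Tec family kinase that acts on phospholipase C, had the largest log2 difference of the set between the lung groups, and it rested in part on 1 array. It read 9.08, 9.22 and 9.05 in control lung, 7.53, 8.63 and 8.64 in resolving lung, and 8.53, 8.29 and 8.44 in resolving spleen. Control lung was the highest group without overlap, and resolving lung replicate 1 lay more than 1 log2 unit below its own group. The difference for resolving lung minus control lung was -0.85 (SE 0.27, limma adjusted p = 0.204), and without that array it was -0.48 (adjusted p = 0.082). For control lung minus spleen the Txk difference was 0.70 (SE 0.27, adjusted p = 0.20) with the spread of all 9 arrays, and the adjusted p was 0.0029 without resolving lung replicate 1 and 0.0090 with only the 6 arrays compared.

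Fyn, the other Src family kinase, read 8.90, 8.96 and 8.96 in control lung, 8.75, 8.96 and 8.89 in resolving lung and 8.96, 9.12 and 9.12 in resolving spleen, a log2 difference of -0.20 (SE 0.076, limma adjusted p = 0.20) for resolving lung minus spleen. Zap70 read 8.44, 8.34 and 8.41 in control lung, 8.88, 8.28 and 8.43 in resolving lung, and 8.60, 8.61 and 8.56 in resolving spleen. The spleen arrays of Zap70 lay above those of control lung, and resolving lung spanned both. Resolving lung replicate 1 was the highest of the 9 arrays for Zap70, the opposite of its place for Txk. Between the lung groups the Zap70 log2 difference was 0.13 (limma adjusted p = 0.728), and -0.047 without that array.

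The 6 adaptors had a median log2 difference of -0.36 between the lung groups, and none was called in any comparison. Without resolving lung replicate 1 the median was -0.13, against -0.16 for the 11 brakes in the same fit. Their mean per array was 8.15 on resolving lung replicate 1, 8.66 and 8.64 on the other resolving lung arrays, 8.78 to 8.80 in control lung and 8.63 to 8.75 in spleen. Grap2 (Gads), which bridges Lat to its partners, read 9.57, 9.61 and 9.66 in control lung, 8.82, 9.25 and 9.39 in resolving lung, and 9.39, 9.35 and 9.44 in resolving spleen. All 3 resolving lung arrays of Grap2 lay below control lung, with a difference of -0.46 (SE 0.13, limma adjusted p = 0.17) that was -0.29 (adjusted p = 0.162) without replicate 1.

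Trat1, an adaptor bound to the receptor complex, read 9.62, 9.53 and 9.55 in control lung, 8.28, 9.47 and 9.27 in resolving lung, and 8.99, 8.94 and 9.03 in resolving spleen. The other resolving lung arrays lay between control lung and spleen, and replicate 1 below both. For Trat1 the log2 difference of resolving lung minus control lung was -0.56 (SE 0.26, limma adjusted p = 0.385), and -0.20 without that array. Without it, resolving lung minus spleen for Trat1 went from 0.021 (adjusted p = 0.981) to 0.38 (adjusted p = 0.0415), and control lung minus spleen, 0.59 in both fits, went from an adjusted p of 0.278 to 0.00373.

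Themis and Skap1 were also lowest on resolving lung replicate 1. Themis, which tunes receptor signals during thymic selection, read 7.23, 7.31 and 7.12 in control lung, 6.16, 7.05 and 7.12 in resolving lung, and 6.92, 7.42 and 7.18 in resolving spleen. Its log2 difference between the lung groups was -0.44 (limma adjusted p = 0.471), and -0.13 without that array. Skap1, which links the receptor to integrins, read 8.13, 8.32 and 8.25 in control lung, 7.64, 8.15 and 8.06 in resolving lung, and 8.10, 8.16 and 8.36 in resolving spleen, with -0.28 and -0.13 for the same pair of fits. Lat, the central scaffold, was steady between the lung groups at 9.55 ± 0.061 and 9.58 ± 0.066 (SD, n = 3), and its log2 difference for control lung minus spleen was -0.23 (SE 0.084, limma adjusted p = 0.18). Plcg1, the phospholipase that opens the calcium branch, had log2 differences from -0.13 to -0.053.

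Ptpn6, which encodes the phosphatase SHP-1, had the largest differences from spleen among the brakes, and its 3 groups did not overlap. It read 8.75, 8.84 and 9.06 in control lung, 9.28, 9.16 and 9.25 in resolving lung, and 9.64, 9.79 and 9.71 in resolving spleen. It was 1.78-fold lower in control lung than in spleen (log2 difference -0.83, SE 0.090, limma adjusted p = 0.00187) and 1.40-fold lower in resolving lung than in spleen (-0.48, SE 0.090, adjusted p = 0.0204). Between the lung groups the difference of 0.35 (SE 0.090) had a limma adjusted p of 0.141. The call for Ptpn6 in control lung minus spleen held in all 19 alternatives. That in resolving lung minus spleen was lost without resolving lung replicate 2 or any 1 of the spleen arrays (adjusted p from 0.0525 to 0.0709), and the adjusted p was 0.0404 with the replicate block over all 9 arrays and 0.0973 with the block over only the 6 compared.

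SHP-1 is also made by B cells and macrophages, so their markers stand beside Ptpn6. The mean of 8 B cell markers was 5.17 to 5.39 in control lung, 4.51 to 4.72 in resolving lung and 5.52 to 6.65 in resolving spleen, with 8 of the 8 above the dim level in all spleen arrays, 7 in control lung and 6 in resolving lung, where the other 2 were at or below it on all 3 arrays. The B cell marker Cd79a averaged 7.57 ± 0.029, 6.71 ± 0.28 and 8.36 ± 0.54 (SD, n = 3) in the same order. Ptpn6 was higher on all 3 resolving lung arrays than on any control lung array, while the B cell marker mean was lower on all 3. By the mean, 8 of the 9 macrophage markers were higher in resolving than in control lung and 1, Siglecf, was lower, at a log2 difference of -0.23. For 4 of them (Csf1r, Adgre1, Cd68 and Fcgr3) the arrays did not overlap, at 1.61, 1.99, 1.29 and 1.05 (limma adjusted p from 0.241 to 0.32). The rest overlapped, and 0 of the 9 were called. Each of the 4 was highest on resolving lung replicate 1. Adgre1, for example, read 7.36 on it, against 4.42 and 4.64 on the other resolving lung arrays. The macrophage marker mean was 3.84 to 4.96 in control lung, 4.64 to 6.69 in resolving lung and 4.36 to 5.14 in spleen. The part of either marker list in the Ptpn6 differences was not tested.

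Sla and Cblb were the other brakes past the threshold. Sla (SLAP), an adaptor that directs receptor chains to degradation, read 9.92, 9.96 and 10.03 in control lung, 9.93, 10.01 and 9.81 in resolving lung, and 9.31, 9.67 and 9.42 in resolving spleen. The lung groups overlapped and both lay above spleen on every array. Sla was 1.42-fold higher in control lung (log2 difference 0.50, SE 0.10, limma adjusted p = 0.0234) and 1.36-fold higher in resolving lung (0.45, SE 0.10, adjusted p = 0.041) than in spleen. The second call was lost in 14 of 20 alternatives, among them the replicate block (adjusted p = 0.052) and each fit that left out 1 array except those without resolving lung replicate 3 or spleen replicate 2 (0.0606 to 0.134). The first was lost without any 1 of the control lung arrays or spleen replicate 1 or 3 (adjusted p from 0.0592 to 0.0859).

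Cblb, the ubiquitin ligase that makes activation depend on costimulation, read 9.67, 9.49 and 9.50 in control lung, 8.90, 8.84 and 9.20 in resolving lung, and 9.07, 9.10 and 9.12 in resolving spleen. Control lung was above both other groups on every array, and resolving lung spanned spleen. Cblb was 1.37-fold higher in control lung than in spleen (log2 difference 0.46, SE 0.10, limma adjusted p = 0.0351), a call lost in 9 of 19 alternatives, among them the replicate block (0.0587) and leaving out any 1 of the 6 arrays compared (0.0683 to 0.113). Between the lung groups Cblb had the smallest p of the set, with a log2 difference of -0.57 (SE 0.10) and a limma adjusted p of 0.0612. It passed the threshold without resolving lung replicate 3, at -0.68 and an adjusted p of 0.037, and when only genes above the dim level were tested, at 0.033.

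The remaining brakes were not called. Cbl, the relative of Cblb, read 9.09, 9.09 and 9.17 in control lung, 8.72, 8.80 and 9.10 in resolving lung and 8.96, 8.84 and 8.93 in resolving spleen, a log2 difference of -0.24 (SE 0.099, limma adjusted p = 0.331) between the lung groups. Ptpn22, a phosphatase that acts on Lck, had a log2 difference of 0.27 (SE 0.082, adjusted p = 0.11) for control lung minus spleen, and Csk, the kinase that locks Lck, -0.27 (SE 0.092, adjusted p = 0.14). Without control lung replicate 3 the Ptpn22 difference was 0.35 (adjusted p = 0.0308). Ubash3a, a phosphatase of the Sts family, read 8.07, 7.76 and 7.60 in resolving lung and 8.10, 8.09 and 8.10 in resolving spleen. Its difference of -0.29 (SE 0.11, limma adjusted p = 0.195) was -0.41 (adjusted p = 0.0209) without resolving lung replicate 1, the array of its group nearest to spleen.

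Sit1, a transmembrane adaptor that recruits phosphatases, was uneven within resolving lung, at 8.92, 8.67 and 7.99. Pag1 (the anchor of Csk), Sla2 (a relative of Sla) and Ptpn2 had log2 differences between -0.25 and 0.21 and none was called. For control lung minus spleen, 10 of the 11 brakes did not overlap, 6 higher and 4 lower in control lung, where 25.5% of all named genes and 42.7% of those above the dim level did not. Of the 11, 3 passed the threshold (27.3%, against 6.16% and 12.3%).

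**Figure D3:**
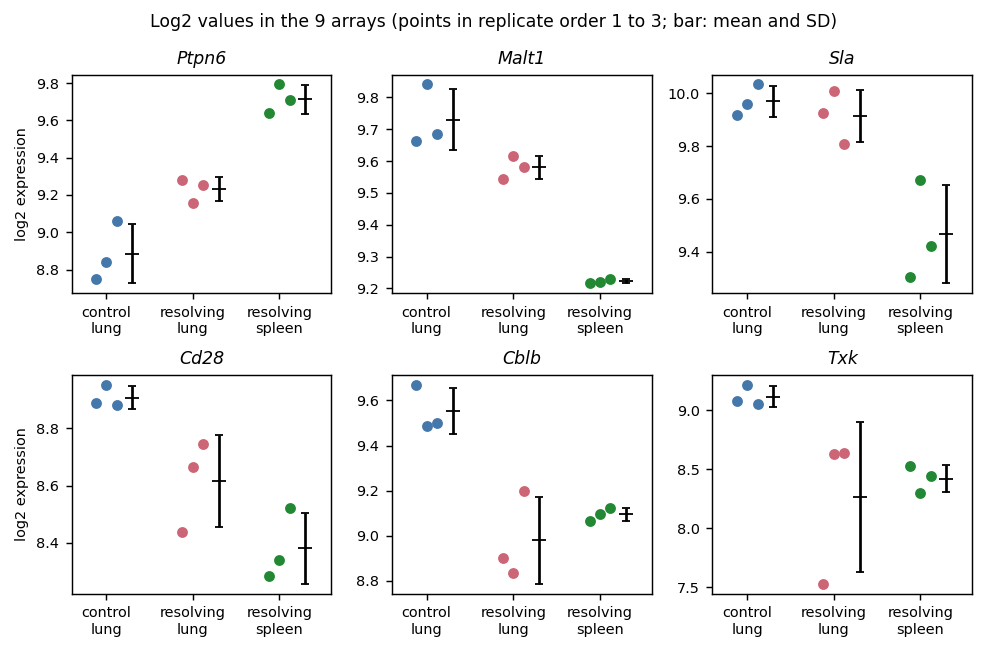
Log2 expression values of Ptpn6, Malt1, Sla, Cd28, Cblb and Txk on each array (points) with the group mean and SD (bars). The Ptpn6 means are 8.88 in control lung, 9.23 in resolving lung and 9.71 in spleen, without overlap, Malt1 runs the other way, and for Txk resolving lung replicate 1 lies at 7.53, far below the rest.

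Downstream, Malt1 was the gene called. Malt1, the protease of the complex that leads to NF-kB, read 9.66, 9.84 and 9.69 in control lung, 9.54, 9.62 and 9.58 in resolving lung, and 9.22, 9.22 and 9.23 in resolving spleen. The 3 groups did not overlap, in the reverse of the Ptpn6 order. Malt1 was 1.42-fold higher in control lung (log2 difference 0.51, SE 0.064, limma adjusted p = 0.00373) and 1.28-fold higher in resolving lung (0.36, SE 0.064, adjusted p = 0.0181) than in spleen, and -0.15 (adjusted p = 0.348) separated the lung groups. The call for control lung minus spleen held in all 19 alternatives. The call for resolving lung minus spleen was lost in 6 of 20: with array medians aligned, without resolving lung replicate 2 or any 1 spleen array (adjusted p from 0.0568 to 0.0675) and with the replicate block over only the 6 arrays (0.0988), while the block over all 9 left it at 0.0380.

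Bcl10, which joins Malt1 in that complex, read 7.29, 7.11 and 7.34 in control lung, 6.96, 7.08 and 6.90 in resolving lung, and 7.05, 6.56 and 6.91 in resolving spleen. Control lung lay above both other groups, and the log2 difference from spleen was 0.41 (SE 0.13, limma adjusted p = 0.116). Prkcq, the kinase that switches the complex on, read 9.89, 10.16 and 9.99 in control lung, 8.85, 9.87 and 10.04 in resolving lung, and 10.04, 10.09 and 10.21 in resolving spleen. Its difference between the lung groups was -0.43 (adjusted p = 0.531), and -0.059 (adjusted p = 0.881) without resolving lung replicate 1.

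None of the NFAT genes was called in any comparison. Nfatc1 read 8.30, 8.74 and 8.68 in control lung, 8.67, 8.47 and 8.75 in resolving lung, and 8.88, 9.06 and 9.02 in resolving spleen, with spleen above both lung groups on every array. Its log2 difference was -0.42 (SE 0.13, limma adjusted p = 0.113) for control lung minus spleen and -0.36 (SE 0.13, adjusted p = 0.171) for resolving lung minus spleen. Nfatc3 read 9.68, 9.78 and 9.68 in control lung, 9.11, 9.48 and 9.52 in resolving lung, and 9.55, 9.46 and 9.55 in resolving spleen. Control lung was its highest group, at -0.35 (SE 0.11, limma adjusted p = 0.199) for resolving lung minus control lung, and -0.22 without resolving lung replicate 1. Nfatc2 averaged 6.98 ± 0.090, 6.97 ± 0.061 and 6.97 ± 0.031 (SD, n = 3), and its 3 intervals stayed between -0.16 and 0.16 on the log2 scale. Rasgrp1, which opens the Ras branch, stood at 9.71 in both lung groups, 0.19 below spleen (SE 0.078) with limma adjusted p-values of 0.227 and 0.229.

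**Figure D4:**
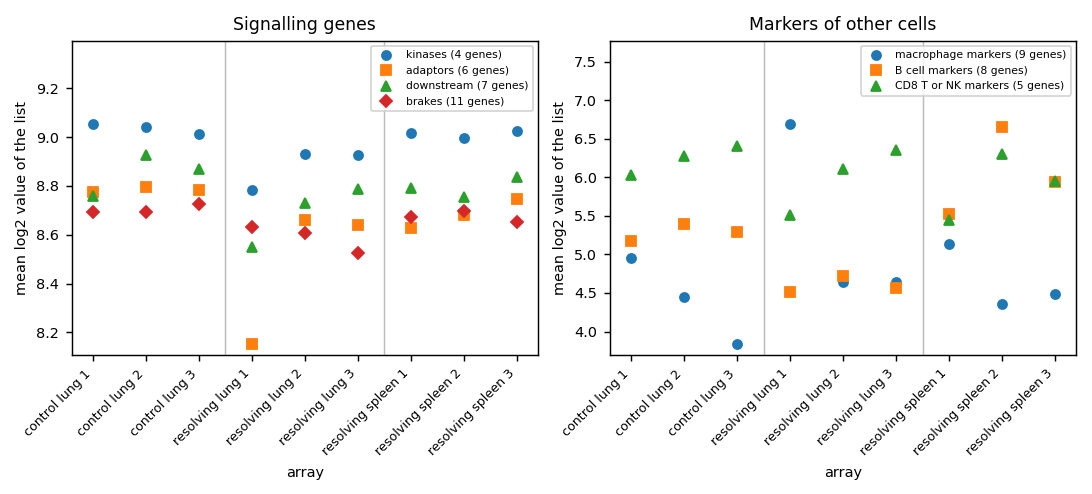
Mean log2 expression value per array of the genes of 4 steps (left: 4 kinases, 6 adaptors, 7 downstream genes, 11 brakes) and of marker genes of other cells (right: 9 macrophage, 8 B cell, 5 CD8 T or NK cell genes). On resolving lung replicate 1 the adaptor mean is 8.15 and the macrophage mean 6.69, the lowest and the highest of the 9 arrays.

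A wider list of 81 other genes of the pathway, of which 72 were measured, held 2 called genes between the lung groups. This was 2.78%, against 0.457% of all named genes and 0.884% of those above the dim level. Both were lower in resolving lung (background 0.323% of all named genes). An unadjusted p under 0.05 in limma was reached by 23 (31.9%, background 14.0% and 26.0%). Arrays of the lung groups did not overlap for 20 (27.8%, background 16.3% and 27.4%). Orai1, the pore of the calcium channel, read 7.24, 7.23 and 7.04 in control lung, 6.75, 6.50 and 6.44 in resolving lung, and 6.73, 6.68 and 6.66 in resolving spleen, with control lung above both. Its log2 differences were -0.61 (SE 0.094, limma adjusted p = 0.047) between the lung groups and 0.48 (SE 0.094, adjusted p = 0.022) for control lung minus spleen. Between the lung groups the Orai1 call was lost in 12 of 19 alternatives, among them the replicate block (adjusted p of 0.0771) and any 1 control lung or spleen array left out (0.0829 to 0.147). It was also lost without resolving lung replicate 2 (-0.57, adjusted p = 0.104) or 3 (-0.54, adjusted p = 0.0578). For control lung minus spleen the call was lost without control lung replicate 1 or 2 or any 1 spleen array, with adjusted p from 0.0631 to 0.0797.

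Against spleen the same wider list held 4 called genes for resolving lung (5.56%, against 5.46% of all named genes and 10.9% of those above the dim level), all lower. It held 6 for control lung (8.33%, against 6.16% and 12.3%), 3 higher and 3 lower. Both shares were near or below the background. Tespa1, needed for receptor signals in the thymus, read 7.88, 8.12 and 7.81 in control lung, 7.92, 8.10 and 8.15 in resolving lung, and 9.23, 9.01 and 9.17 in resolving spleen. Both lung groups overlapped and lay about 1 log2 unit below spleen, at -1.20 (SE 0.10, limma adjusted p = 0.000775) for control and -1.08 (SE 0.10, adjusted p = 0.00209) for resolving lung. Lax1, an inhibitory adaptor, was lower by the same tests, at -0.77 (adjusted p = 0.00189) and -0.55 (adjusted p = 0.0091). In resolving lung the PI3 kinase subunit Pik3cd, at -0.42 (limma adjusted p = 0.0291), was also lower than in spleen. In control lung the phosphatase Ptpn7 was lower, at -0.96 (limma adjusted p = 0.036), and Tab2, of the NF-kB branch, was higher, at 0.33 (adjusted p = 0.043). Leaving out 1 array ended the call of Pik3cd for all but control lung replicates 1 and 3 and resolving lung replicate 2 (adjusted p up to 0.105). It ended the call of Ptpn7 for all but resolving lung replicates 1 and 3 (up to 0.117), and of Tab2 for all but resolving lung replicate 1 and spleen replicate 3 (up to 0.124). With the replicate block over only the 6 arrays, the resolving lung calls of Tespa1 (0.0501), Lax1 (0.101) and Pik3cd (0.141) were lost. With the block over all 9 arrays, the calls of Pik3cd (0.0534), Ptpn7 (0.0774) and Tab2 (0.0805) were lost.

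By group means, 14 of the 38 genes ran resolving lung, spleen, control lung from low to high, and 9 ran resolving lung, control lung, spleen. Another 8 ran control lung, resolving lung, spleen, among them Ptpn6, and 6 ran spleen, resolving lung, control lung, among them Malt1, Sla and Cd28. The last, 1 gene, ran control lung, spleen, resolving lung, and was Cd3g. Many neighbours in these orders differed by less than their spread. Of the 38 genes, Ptpn6 and Malt1 were those whose 3 groups were apart on every array.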

How the data were processed

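Affymetrix Mouse Gene 2.1 ST arrays, 1 per sample, measured RNA of sorted Tregs (225 ng, per the labels' protocols), and groups and replicate numbers were taken from the sample titles. The values are log2 expression values as the authors deposited them, for 31351 rows. The authors used RMA, Affymetrix Expression Console and Partek, per the submitters' processing notes. The genome build, versions and order of steps are not given in the sources used here. Log2 as their scale was read from the values, 1.07 to 12.86. RMA aligns the distributions of the arrays, which removes changes that most genes share.

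Rows were named through their accessions with NCBI's RefSeq genes (GRCm38.p6), taken as a source of names and not of positions: 21057 rows had 1 symbol, and 10294 (32.8%) stayed unnamed and untested. For 34 genes with several rows the brightest row was used. No gene was filtered out. All 9 arrays were fitted in 1 model with limma 3.58.1 (R 4.3.3; 6 residual and 2.29 prior degrees of freedom), two-sided, with Benjamini-Hochberg adjustment over 21023 genes. Normal values were simulated for 21023 genes, each with its mean over the 9 arrays and its pooled spread. Shifts were then added to randomly chosen genes in resolving lung. For resolving lung minus control lung, the fit recovered 35.0%, 80.5% and 98.0% of shifts of 0.5, 1 and 2 log2 units. The simulation held no outlying array and no correlation between genes, so recovery in the real data may differ.

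The genes and lists were chosen with earlier results of these data known. All genes of the set were named. Of the wider pathway list, up to 6 genes per comparison with the smallest p among those called were named. Some genes of that list are counted but not reported here by name. A check correlated the deviations of arrays from their group means. For the same replicate number the correlations were 0.171 to 0.235 between resolving lung and resolving spleen. Between control lung and these 2 groups they were 0.041 to 0.246 and -0.081 to 0.136. Arrays of different number, control lung replicate 2 and resolving lung replicate 3, reached 0.204, so the check cannot settle whether numbers mark pairs. No source used here says whether the same number marks the same mouse. The description of resolving spleen replicate 2 carries the number of replicate 3, and the titles were followed. Alternatives changed the spread estimate, weights, arrays fitted, block, normalization, filter, rows tested and arrays left out. Of these, the block over only 6 arrays was added after the data were examined.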

Additional observations from a re-analysis of the deposited data

How the results depend on the processing

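With limma and genes above the dim level alone, 1 gene of the set (Cblb) was called between the lung groups, where the fit to all named genes called 0. For resolving lung minus spleen the count of 3 became 1 (Ptpn6) with array medians aligned. The replicate block over all 9 arrays left 2 called for resolving lung minus spleen, 4 for control lung minus spleen and 0 between the lung groups. Over only the 6 arrays of resolving lung and spleen the block left 0. Whether replicate numbers mark pairs is not known. Leaving out 1 array gave 0 to 1, 0 to 4 and 2 to 9 called genes for resolving lung minus control lung, resolving lung minus spleen and control lung minus spleen. Of 2204 differences of the 38 genes under alternatives, 0 turned direction while called, 45 lost a call and 22 gained 1. Another 70, in 21 genes, changed sign while called in neither fit. Before the change these differences were at most 0.16 in size, but some were larger after it. Sit1 between the lung groups went from -0.0072 to as much as 0.26. The median difference of the set ranged from -0.11 to -0.077, from -0.15 to -0.078 and from -0.025 to 0.047 in the same order of comparisons. Array medians spanned 0.10. Over all genes, the 96 calls between the lung groups became 63 with array weights, 0 with only the 6 arrays compared, 15 with the replicate block, 267 among genes above the dim level, 15 without replicate 1 of both lung groups, and 4 to 212 with 1 array left out. The 1148 for resolving lung minus spleen became 704 with the 6 arrays, 175 with the block over them and 508 to 1131 with 1 array left out, and the 1295 for control lung minus spleen 681 to 1793. The causes were not tested. All genes of the set were above the dim level, so signal over background did not limit which could be compared.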
